A study of Mus musculus with 10 samples.

Results

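Keratin genes were taken as the mm10 protein-coding genes on chromosomes 11 and 15 whose symbol is Krt followed by a number, with the keratin-associated protein (Krtap) genes left out. The rule found 53 of 21887 protein-coding genes, 27 on chromosome 11 and 26 on chromosome 15. Their chromatin was read out in mouse bone marrow-derived macrophages by ChIP-seq for H3K27me3, the trimethylated form of lysine 27 of histone H3. All cells came from C57BL/6 mice and were differentiated in culture with M-CSF, the macrophage growth factor, at 20 ng/ml over 7 days. Control cells, called WT, carried floxed alleles of Eif2ak3 (Eif2ak3 fl/fl), the gene of the stress kinase PERK, so the floxed gene is shared by all groups. Knockout (KO) cells also carried LysMcre, a Cre recombinase under the lysozyme M promoter, which is active in myeloid cells. M0 cells received no stimulus, M1 cells LPS at 20 ng/ml with interferon-gamma at 50 ng/ml for 24 h, and M2 cells IL-4 at 20 ng/ml for 24 h. M0 had 1 library per genotype, and M1 and M2 had 2 biological replicates per genotype, and a p-value here reflects only the variation among those cultures.

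Keratins are the intermediate filament proteins of epithelial cells. A filament forms only when an acidic type I keratin pairs with a basic type II keratin. In the mouse the type I genes lie in one cluster on chromosome 11 and the type II genes in another on chromosome 15, where the type I gene Krt18 sits at the end beside Krt8. Simple epithelia make the Krt8 and Krt18 pair, basal keratinocytes Krt5 and Krt14, and differentiating keratinocytes Krt1 and Krt10, while hair shafts and the inner root sheath use sets of their own. Macrophages are not a keratin-rich cell type. H3K27me3 is laid down by Polycomb repressive complex 2 and is found over genes that a lineage keeps silent, often as broad domains.

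The measure throughout is cover, the percent of a gene body that lay under the authors' called H3K27me3 regions of a library, and a gene with at least 50% cover is called covered. The 10 libraries held 12.6 to 20.9 megatags, of which 41.3% to 64.1% fell in called regions, and 2821 to 3519 genes were covered. WT M2 replicate 1 had the lowest tag share and the fewest covered genes, and the correlation of cover over genes with its replicate was 0.883 against 0.930 to 0.951 in the other 3 pairs. Of 16 macrophage identity genes, 12 were at 0% in all 10 libraries and none was covered in an M1 or M2 library, and none of 10 housekeeping genes was covered in any. The M0 libraries had longer fragments, 352 and 372 bp against 178 to 190 bp, and their values are set beside the others with no test. Neighbouring keratin genes often lie under 1 region, so they are not independent observations, and cover cannot exceed 100%.

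The 2 clusters carried the mark to very different extents. On chromosome 15, 12 of 26 keratin genes (46.2%) were covered in all 10 libraries, while on chromosome 11 only Krt222 of 27 was (3.7%). For all 53 members the count was 13 (24.5%), and over all protein-coding genes the share was 8.74%. The other genes of these chromosomes gave 13.2% on chromosome 15 and 13.5% on chromosome 11. At the other extreme 13 members, all on chromosome 11, were at 0% in every library, which is 24.5% of the family against 57.3% of all genes. The median over members of the mean cover was 88.8% on chromosome 15, 0.661% on chromosome 11 and 0% over all genes.

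**Figure D1:**
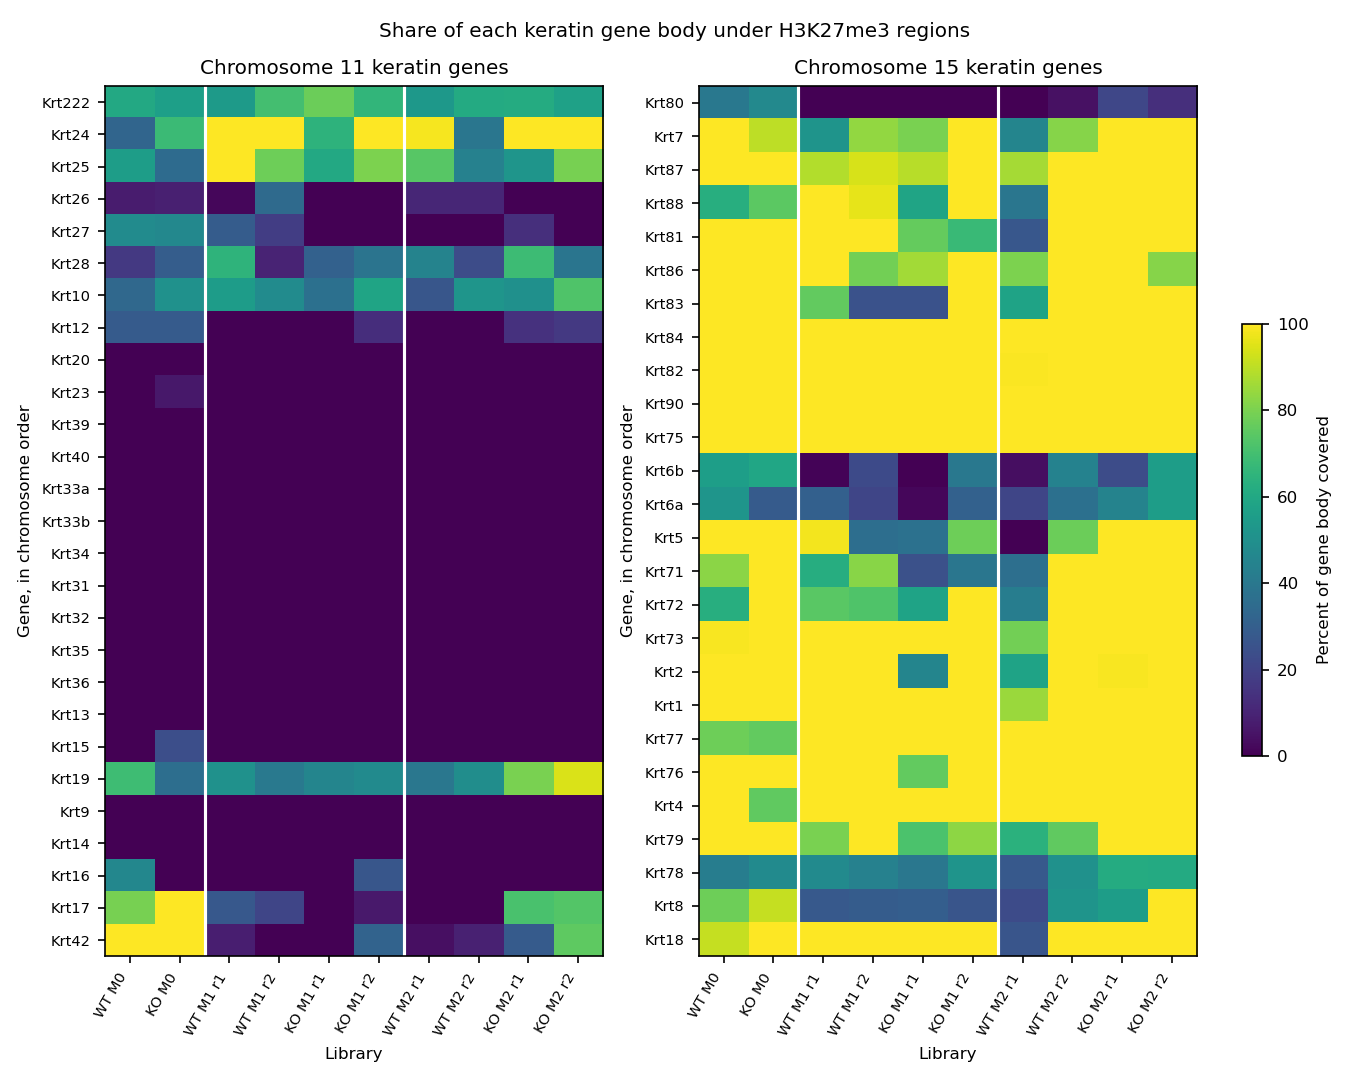
Percent of the gene body under called H3K27me3 regions (colour scale from 0 to 100) for the 53 keratin genes in chromosomal order (one line of cells per gene) in each of the 10 libraries (one column per library, with white lines between M0, M1 and M2). The chromosome 15 genes are mostly at high cover, while 10 neighbours on chromosome 11 from Krt39 to Krt13 are at 0 in every library.

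Promoter sequences of 6 members are given because they cover the range of CpG content and of cover in the family. H3K27me3 is commonly found at CpG-rich promoters of silent genes. Each sequence is the 250 bases before the annotated start, read 5′ to 3′ on the gene's own strand, from RefSeq (GRCm38.p6, the same build as mm10), with every CpG in capitals. Krt7 (chr15:101412153-101412402, plus strand) and Krt18 (chr15:102027966-102028215, plus strand) have the most CpG of the matched members, 16 and 12. Krt8 (chr15:102004343-102004592, minus strand) has 3, and its start lay under a region in every library. Krt90 (chr15:101562951-101563200, minus strand) has 1 CpG and 100% cover in all 10 libraries. Krt5 (chr15:101712906-101713155, minus strand) has 2 CpG and a cover that ran from 0% to 100%, and Krt20 (chr11:99438154-99438403, minus strand) has 5 and was at 0% in all.
Krt7: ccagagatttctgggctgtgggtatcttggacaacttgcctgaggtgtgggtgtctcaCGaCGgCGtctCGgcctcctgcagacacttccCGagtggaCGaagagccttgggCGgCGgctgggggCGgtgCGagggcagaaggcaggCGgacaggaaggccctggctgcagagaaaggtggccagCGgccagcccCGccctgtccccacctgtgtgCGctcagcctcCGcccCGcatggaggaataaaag
Krt18: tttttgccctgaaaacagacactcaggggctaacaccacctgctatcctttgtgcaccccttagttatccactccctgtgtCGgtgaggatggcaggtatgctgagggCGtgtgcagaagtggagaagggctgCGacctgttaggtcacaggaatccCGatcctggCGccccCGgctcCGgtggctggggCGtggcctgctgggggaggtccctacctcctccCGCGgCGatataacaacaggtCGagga
Krt8: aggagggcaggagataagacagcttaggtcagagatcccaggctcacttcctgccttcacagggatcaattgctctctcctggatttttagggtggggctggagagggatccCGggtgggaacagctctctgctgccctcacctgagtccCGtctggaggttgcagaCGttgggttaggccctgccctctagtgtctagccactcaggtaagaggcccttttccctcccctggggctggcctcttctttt
Krt90: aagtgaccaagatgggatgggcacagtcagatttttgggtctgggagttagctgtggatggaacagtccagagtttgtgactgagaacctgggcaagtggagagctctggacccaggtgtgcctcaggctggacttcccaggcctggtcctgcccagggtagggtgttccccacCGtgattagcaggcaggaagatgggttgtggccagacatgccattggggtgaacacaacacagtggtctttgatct
Krt5: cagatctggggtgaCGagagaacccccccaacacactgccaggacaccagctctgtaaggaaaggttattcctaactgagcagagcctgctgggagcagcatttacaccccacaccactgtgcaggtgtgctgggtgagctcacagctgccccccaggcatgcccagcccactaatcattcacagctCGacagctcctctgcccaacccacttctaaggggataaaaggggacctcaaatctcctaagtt
Krt20: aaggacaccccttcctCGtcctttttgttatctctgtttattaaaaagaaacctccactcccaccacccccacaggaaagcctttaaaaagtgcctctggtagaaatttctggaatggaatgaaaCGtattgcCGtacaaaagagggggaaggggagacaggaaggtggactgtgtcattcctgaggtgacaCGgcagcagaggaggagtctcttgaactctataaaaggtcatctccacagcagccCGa

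Promoters of 36 of the 53 members were matched in that table by gene identifier, and in 6 of these (Krt10, Krt12, Krt36, Krt14, Krt2 and Krt78) the start lies more than 100 bp inside the annotated gene. That offset runs from 334 bp at Krt12 to 8085 bp at Krt10 and 42337 bp at Krt78. Keratin promoters were poor in CpG, with a median of 3.5 (range 1 to 16) against 10 (range 0 to 56) over 17492 promoters of protein-coding genes. Only Krt7 and Krt18, 5.56% of the 36, had at least 10 CpG, against 50.4% of all promoters. Members covered in all 10 libraries had a median of 3 CpG (range 1 to 5, n = 8 promoters), and members at 0% in all 10 also had a median of 3 (range 1 to 8, n = 11 promoters). The CpG count of these 250 bases did not separate those sets, whose ranges overlap.

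**Figure D2:**
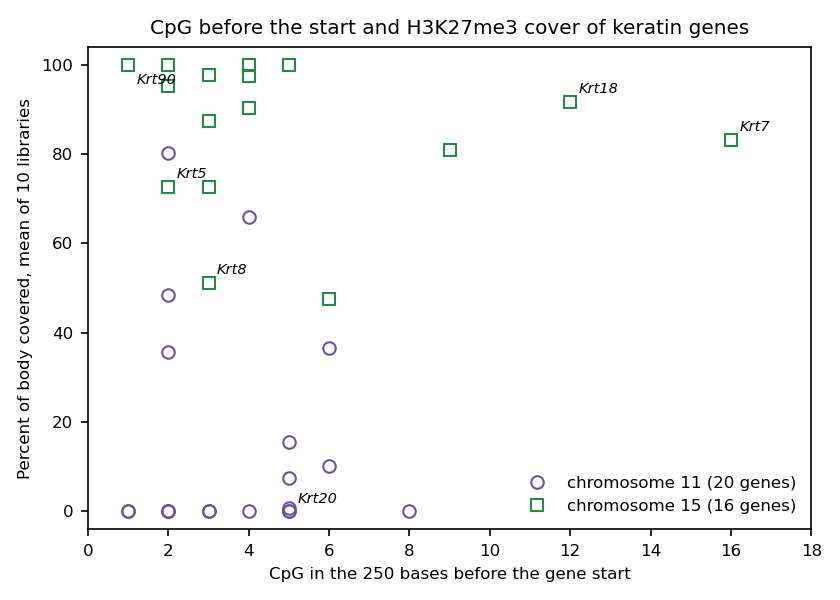
CpG count in the 250 bases before the gene start (horizontal axis) against the percent of the body covered, as the mean of 10 libraries (vertical axis), for 20 keratin genes on chromosome 11 (circles) and 16 on chromosome 15 (squares). Genes with 1 to 5 CpG are found at both 0% and 100% cover, and Krt7 and Krt18 stand to the right with 16 and 12.

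In the window of 2 kb centred on the start, 11 of the 36 members (30.6%) were at least 50% covered in all 10 libraries, against 17.3% of all 17492 starts. All 11 were among the 16 matched starts on chromosome 15 (68.8%), and none of 20 on chromosome 11 was. Krt78, whose start lies 42337 bp inside its annotated gene, is one of the 11. Of the chromosome 11 starts, 12 of 20 (60%) were at 0% in every library, a share near the 63.7% of all starts. The window placement was chosen after the data were seen.

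The chromosome 15 cluster runs from Krt80 to Krt18 (15:101348315-102032026, 0.684 Mb), and 69.2% ± 7.46 (SD, n = 10 libraries) of it lay under regions, with a range of 56.6% to 78.6%. The chromosome 11 cluster runs from Krt222 to Krt42 (11:99232761-100269951, 1.04 Mb) with 10.2% ± 2.14 (SD, n = 10) under regions, range 6.31% to 12.8%. The 2 sets of 10 values do not overlap. The genes at the edges (Smarce1 and Eif1 on chromosome 11, Atg101, Smim41 and Eif4b on chromosome 15) were at 0% in all 10 libraries, so the cover did not extend over these neighbours. Between 16 and 30 regions touched the chromosome 15 keratins in a library, and the widest was 53.0 to 112 kb, at the 98.9 to 99.7 percentile of widths in its own list. In tag density these regions were less unusual, with a median percentile of 51.3 to 79.4 by the authors' normalised tag count per kb. In 7 of the libraries the widest region held Krt84, Krt82, Krt90 and Krt75 whole.

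**Figure D3:**
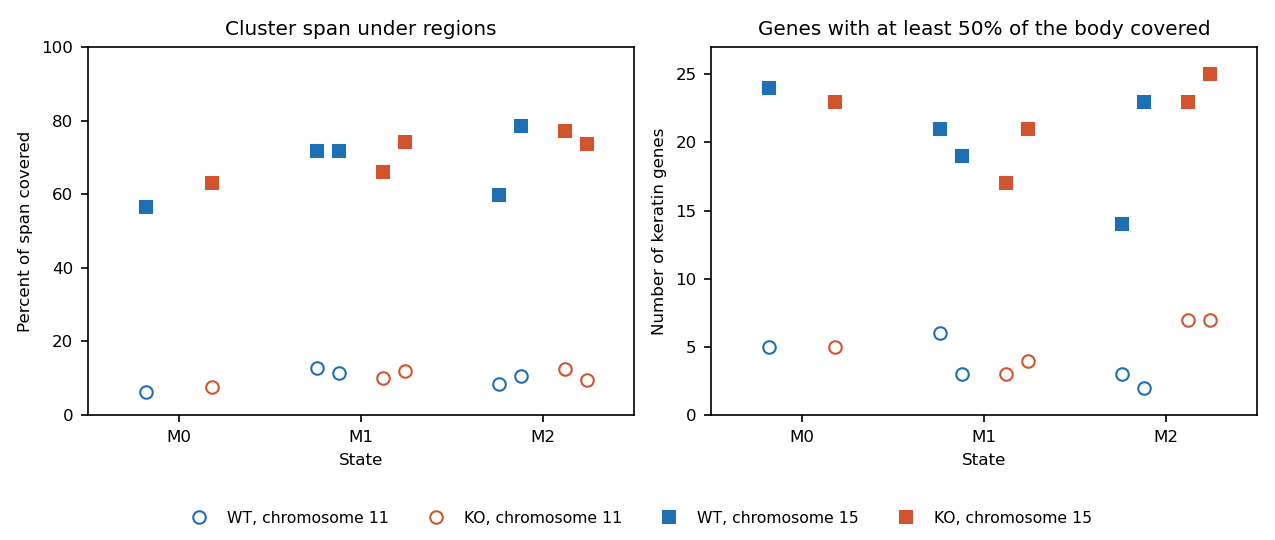
Left, percent of each keratin cluster's span under called regions. Right, number of keratin genes with at least 50% of the body covered. Each point is 1 library, by state (horizontal axis), genotype (blue WT, orange KO) and chromosome (circles 11, squares 15). The chromosome 15 points lie above the chromosome 11 points in every library, and on the right WT M2 replicate 1 is the lowest of the chromosome 15 points, with 14 covered genes.

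The simple epithelial keratins were the class with no member covered in all 10 libraries, and 0 to 4 of the 7 were covered in a library. Krt8 (15:101996711-102004342), the type II partner of Krt18, had 77.8% cover in WT M0 and 91.2% in KO M0, 28.0% and 29.0% in WT M1, 29.7% and 26.2% in KO M1, 22.8% and 51.7% in WT M2, and 55.6% and 100% in KO M2. Its 2 kb start window was at 100% in all 10 libraries, so its body varied while its start did not. Krt18 (15:102028216-102032026) was at 91.3% in WT M0, 26.4% in WT M2 replicate 1 and 100% in the remaining 8 libraries, with its start at 100% in all 10. Krt7 (15:101412403-101427806), the type II keratin of ducts and glands, had 100% and 90.0% in WT and KO M0, 51.9% and 83.7% in WT M1, 79.9% and 100% in KO M1, 45.5% and 81.8% in WT M2, and 100% in both KO M2 libraries. The lowest values of Krt7 were thus in replicate 1 of WT M1 and of WT M2.

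Krt19 (11:100140810-100145926), a type I keratin of simple and ductal epithelia, was partly covered everywhere, at 69.0% and 35.98% in WT and KO M0, 50.8% and 40.4% in WT M1, 45.7% and 47.9% in KO M1, 39.7% and 49.2% in WT M2, and 80.0% and 94.4% in KO M2. Only the KO M2 libraries stand clear of the other stimulated ones. Krt80 (15:101348315-101370162), a type II keratin at the edge of its cluster, was at 40.04% and 47.1% in WT and KO M0, 0% in all 4 M1 libraries, 0% and 4.58% in WT M2, and 21.5% and 13.3% in KO M2. Krt20 (11:99428385-99438153), the intestinal type I keratin, was at 0% in all 10 libraries, and Krt23 (11:99477973-99493120) was at 6.61% in KO M0 and 0% in the other 9.

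The stratified epithelial keratins, which build the filaments of skin and mucosa, had 6 to 13 of 19 genes covered in a library and 5 covered in all 10. Those were Krt1 (84.9% to 100%), the suprabasal type II keratin, Krt4 (75.7% to 100%) of mucosal epithelia, Krt76 (75.9% to 100%), Krt77 (75.9% to 100%) and Krt79 (64.0% to 100%). Several type I members of the class had less, though the type I gene Krt24 was covered in 8 libraries, with a mean of 80.4%. Krt10, the partner of Krt1, had 26.7% to 72.6%, and Krt13, Krt9 and Krt14 were at 0% in every library. The basal pair was split in the same way: Krt14 at 0% in all 10, Krt5 (15:101707069-101712905) between 0% and 100%. Of the stress and wound keratins, Krt6a had 1.87% to 55.8% and Krt17 0% to 100%. Here the mean of the type I gene Krt17, 37.9%, was above those of the type II genes Krt6a (32.4%) and Krt6b (30.6%). Krt16 was at 46.3% in WT M0, 26.7% in KO M1 replicate 2 and 0% in the other 8 libraries.

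Of the 8 hair follicle sheath keratins, 3 to 6 were covered in a library, and Krt75 (100% in all 10) and Krt73 (78.7% to 100%) in every one. Their type I members, Krt25, Krt26, Krt27 and Krt28, had highest values of 100%, 34.4%, 48.1% and 68.6%. The hair shaft keratins divided by cluster. All 9 type I members (Krt31, Krt32, Krt33a, Krt33b, Krt34, Krt35, Krt36, Krt39 and Krt40) were at 0% in all 10 libraries. All 6 type II members had cover, and 5 or 6 were covered in each library, with Krt84 at 100% in all 10, Krt82 at 99.3% to 100%, Krt87 at 86.4% to 100% and Krt86 at 78.7% to 100%. Krt81 and Krt83 had under 50% in 1 and 2 libraries. Among the remaining 4 members, Krt90 was at 100% in all 10 libraries and Krt222 at 53.4% to 77.4%.

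Genes of related function were measured the same way. The products of the 56 Krtap genes cross-link hair keratins, and many of these genes lie inside the chromosome 11 cluster. Of the 56, 45 (80.4%) were at 0% in all libraries, and 4 (7.14%) were covered in all, a share near that of all genes. Of 17 other intermediate filament genes, 8 (47.1%) were covered in all 10 libraries, among them Des of muscle, Gfap of astrocytes and the neurofilament genes Nefl, Nefm and Nefh. In the same list 5 (29.4%) were at 0% in all, among them Vim and Lmna, used in macrophages. Of 21 desmosome and cornified envelope genes, 6 (28.6%) were covered in all 10 and 5 (23.8%) were at 0% in all. Of 20 epithelial transcription factor genes, 8 (40%) were covered in all 10, among them Hoxc13, Dlx3 and Msx2 of the hair follicle, and none was at 0% in all. In the same list 6 were covered in no library, among them Trp63 at 1.04% at most and Grhl1 at 6.61% at most. Foxn1 was covered in 4 libraries.

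IL-4 stimulation was then compared with LPS and interferon-gamma over 8 libraries, with both genotypes in each group. No keratin gene of the 38 with any cover in these libraries passed the exact two-sided permutation test: 0 had an unadjusted p under 0.05 and 0 after Benjamini-Hochberg adjustment over 8795 genes. Over all genes 2.44% had an unadjusted p under 0.05 and 0% an adjusted one. The smallest possible p is 0.0286, so an adjusted p under 0.05 would need most of the 8795 genes at that floor. The adjusted counts therefore cannot decide on single genes. No member had 4 M2 values all above (background 0.864%) or all below (background 1.58%) the 4 M1 values. The largest differences of means were 32.9 points for Krt83, 32.1 for Krt71 and 29.3 for Krt8, each higher in M2. Krt8 had 28.2% ± 1.51 in M1 and 57.5% ± 31.9 in M2 (SD, n = 4 each, exact permutation p = 0.143), so the spread within M2 was larger than the difference. Without WT M2 replicate 1, 3 of the members had an unadjusted exact permutation p under 0.05, where 8.76% of all genes did, and Krt80, Krt6a, Krt71 and Krt8, named after their values were seen, lay wholly above M1, against a background of 11.9%. Without WT M1 replicate 1, Krt222 lay wholly below M1, against 4.75%.

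Loss of PERK was compared within states over all 10 libraries, with 72 arrangements and a smallest possible p of 0.0278. None of 40 keratin genes with any cover passed: 0 had an unadjusted exact permutation p under 0.05, where 3.34% of 9352 genes did, and 0 an adjusted one, as for all genes (0%). Here too an adjusted p under 0.05 would need most of the genes at the smallest p, so the adjusted counts cannot decide on single genes. Krt26 had the smallest p, with KO minus WT at -11.3 points (exact permutation p = 0.0556, adjusted 0.827). Without KO M1 replicate 1, 2 members had an unadjusted exact permutation p under 0.05, against 4.56% of all genes. Krt7 had a difference of 21.4 points (exact permutation p = 0.111, adjusted 0.852). No member had KO values all above (background 2.71%) or all below (background 0.631%) the WT values in every state.

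Within M2, where 2 libraries against 2 cannot give an exact permutation p under 0.33, both KO values lay above both WT values for 12 of 37 members (32.4%), a share not far from the background of 24.8%. Where the difference of means was also at least 25 points, a size set after the data were seen, the count was 8 of 37 (21.6%) against 6.33%. KO lay below WT for 1 member, Krt26 (2.7% against 9.4%), and for 0 with means at least 25 points apart (background 1.58%). The median difference over the 37 was 19.8 points, with 30 above 0, 1 below and 6 at 0. Over 8477 genes it was 0.904 points, with 4947 above 0, 2527 below and 1003 at 0. Without WT M2 replicate 1 the median was 0 points for the 37 members (16 above 0, 5 below, 16 at 0) and also for all 7949 genes (3513 above, 3061 below, 1375 at 0).

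Of the 8 genes, 4 are on each chromosome. On chromosome 11, Krt17 (11:100256215-100261029), a type I keratin induced in injured epidermis, was at 79.6% and 100% in WT and KO M0, 27.4% and 20.8% in WT M1, 0% and 6.65% in KO M1, 0% in both WT M2 libraries, and 71.4% and 73.2% in KO M2. The means in M2 were 0% ± 0 and 72.3% ± 1.31 (SD, n = 2 each), and in M1 the order was the opposite, with KO lower by a difference of -20.8 points. Such an opposite order without overlap was found for 1.86% of 8795 genes and for no other member of 38. Its neighbour Krt42 (11:100262882-100269951) was at 100% in both M0 libraries, 8.20% and 0% in WT M1, 0% and 32.02% in KO M1, 4.09% and 9.35% in WT M2, and 28.9% and 75.3% in KO M2. The KO M2 values of Krt42 lay 46.4 points apart, about as far as the difference of means of 45.4 points. Krt19, given above, differed by 42.8 points.

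Krt24 (11:99279959-99285262) was at 32.4% and 68.3% in WT and KO M0, 100% in both WT M1 libraries, 64.7% and 100% in KO M1, 98.7% and 39.4% in WT M2, and 100% in both KO M2 libraries. Its M2 difference of 30.9 points came from WT M2 replicate 2 and was 1.26 points without it, against 60.6 without WT M2 replicate 1. On chromosome 15, Krt5, the basal type II keratin, was at 100% in both M0 libraries, 98.4% and 36.1% in WT M1, 37.4% and 77.8% in KO M1, 0% and 77.5% in WT M2, and 100% in both KO M2 libraries. The difference of 61.3 points was 22.5 without WT M2 replicate 1 and 100 points without WT M2 replicate 2. Krt79 (15:101929332-101940324) was at 100% in both M0 libraries, 79.8% and 100% in WT M1, 71.7% and 82.9% in KO M1, 64.0% and 75.5% in WT M2, and 100% in both KO M2 libraries, a difference of 30.3 points. Krt8 and Krt7 differed by 40.6 and 36.4 points in M2, and by 26.1 and 18.2 points without WT M2 replicate 1. The lower KO M2 value of Krt8, 55.6%, was close to its higher WT M2 value, 51.7%. Without KO M2 replicate 2 the differences were 18.4 points at Krt8 and 22.2 at Krt42, and without KO M2 replicate 1 they were 62.7 and 68.5.

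**Figure D4:**
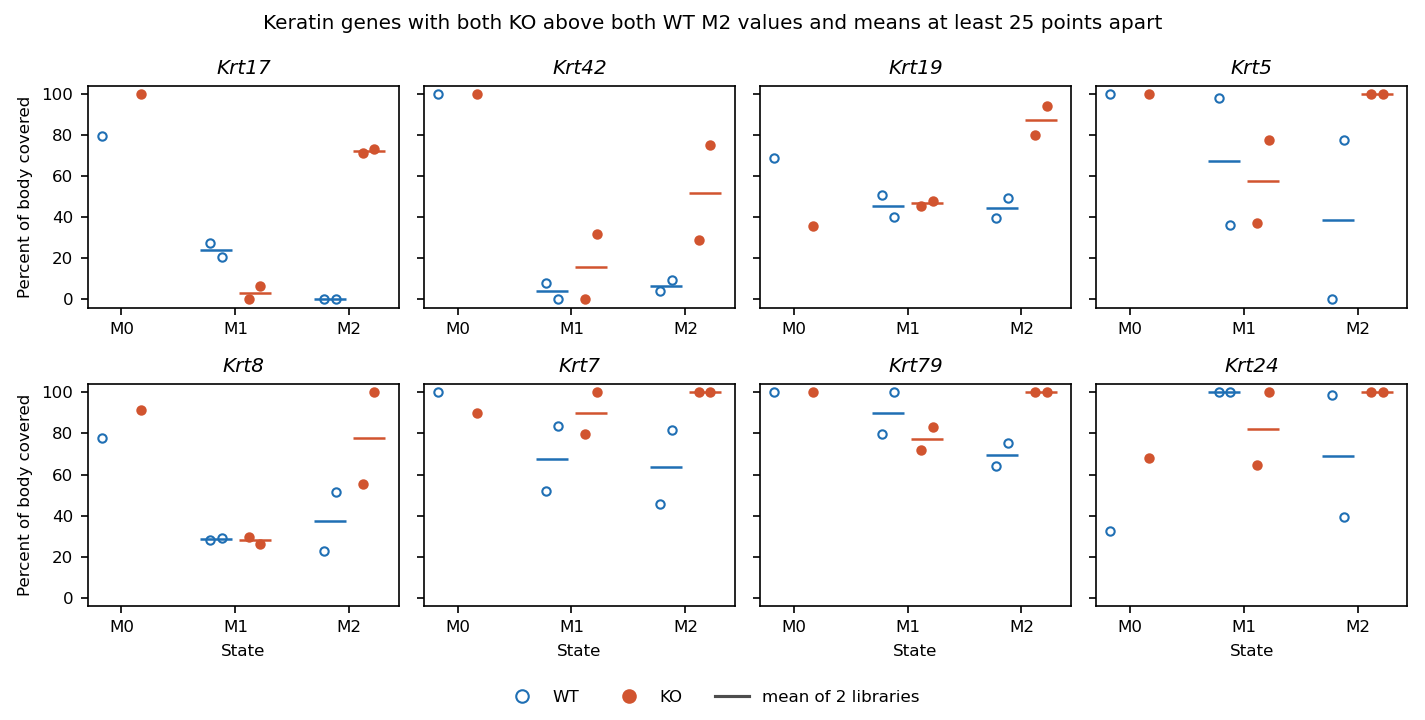
Percent of the gene body covered (vertical axes) in each library by state for the 8 keratin genes whose KO M2 values both lay above both WT M2 values and whose M2 means differed by at least 25 points. Open blue points are WT, filled orange points KO, and short lines the mean of 2 libraries. For Krt17 the KO M2 values (71.4% and 73.2%) stand against 0% in both WT M2 libraries, and in M1 the order is the opposite.

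Within M2 the genotypes also differed in the share of tags in regions, at 41.3% and 56.5% in WT and 61.0% and 61.3% in KO. The genes covered overlapped, at 2821 and 3394 in WT against 3519 and 3366 in KO. The length under regions overlapped too, at 232 and 251 Mb in WT M2 against 246 and 214 Mb in KO M2. The part of these library differences in the keratin differences was not tested. Without WT M2 replicate 1, KO lay above WT at 14 members (background 28.7%), and with means at least 25 points apart at 6 (Krt24, Krt28, Krt19, Krt17, Krt42 and Krt8), against 2.96%, 5 of them among the 8. Without WT M2 replicate 2, the counts were 27 (background 53.6%) and 18 (18.6%). When every library was reduced to the same covered length, 8 members were higher in KO without overlap and with means at least 25 points apart (background 6.15%). Of the 8 genes above, Krt5 then had a difference of 0 points, Krt24 -11.9, Krt17 36.6 and Krt7 70.9, and the remaining 4 had 30.3 (Krt79) to 42.8 points (Krt19). With only the upper 50% of each library's regions by score, the difference was 35.7 points at Krt17, 15.3 at Krt42, 3.15 at Krt8, 12.2 at Krt79, 80.3 at Krt24 and 55.0 at Krt7. With 2 kb added on either side of the body it was 21.6 points at Krt19.

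Within M1 no keratin gene of 37 had both KO values above both WT values (background 11.8%), and 5 (13.5%) had both below, Krt26, Krt27, Krt17, Krt81 and Krt71, against 8.3%. With means also at least 25 points apart, 2 members (5.41%) were lower in KO, against 1.03%, and 0 higher (background 0.921%). Krt71 (15:101733949-101743097), a type II keratin of the inner root sheath, was at 82.4% and 100% in WT and KO M0, 62.1% and 82.1% in WT M1, 24.8% and 39.2% in KO M1, 36.6% and 100% in WT M2, and 100% in both KO M2 libraries. Krt81 (15:101459061-101463765), a hair shaft keratin, was at 100% in both M0 and both WT M1 libraries, 76.2% and 67.6% in KO M1, 27.2% and 100% in WT M2, and 100% in both KO M2 libraries. KO minus WT in M1 was -40.1 points for Krt71 and -28.1 for Krt81 (-19.8 and -16.2 when regions in the lower part of the score order were left out, and -18.3 and 0 at equal covered length), yet the 2 kb at the start of Krt71 was at 100% in all 10 libraries. When every library was reduced to the same covered length, 0 members lay below WT without overlap in M1 (background 8.37%). Leaving out KO M1 replicate 2 gave 16 members below (background 25.8%) and leaving out WT M1 replicate 2 gave 9 (26.4%), while leaving out KO M1 replicate 1 gave 11 above (32.2%).

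Read by genotype, M2 values lay above M1 values without overlap at 12 of 37 members in KO (32.4%, background 28%) and at 0 of 36 in WT (background 4.05%). M2 values lay below at 1 member in KO, Krt222 (background 14.7%), and at 5 in WT (13.9%, background 9.75%), Krt24, Krt25, Krt27, Krt17 and Krt79. The 2 comparisons use different libraries, and the difference between them was not tested.

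Start windows could differ from the bodies. The start of Krt5 was at 100% in both M0 and both KO M2 libraries, 45.2% and 79.2% in WT M1, and 0% in KO M1 and WT M2, where its body reached 77.8% and 77.5%. At Krt10 the start lies 8085 bp inside the annotated gene, so its window is a part of the body. That window was at 0% in both WT M2 libraries, 90.4% and 88.5% in KO M2, and between 10.6% and 95.8% in the rest. The body of Krt10 gave 26.7% and 52.1% in WT M2 and 50.3% and 72.6% in KO M2, which overlap. Other start windows were mixed in M2. Those of Krt7 and Krt28 were higher in both KO libraries, while those of Krt24, Krt25, Krt42 and Krt79 overlapped between genotypes. Krt42 had 0% and 83% in WT M2 against 0% and 100% in KO M2. No share of all starts stands beside these genotype differences.

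The authors' deposited tables of differential regions hold 49 and 93 regions with more H3K27me3 in WT and in KO for M1, and 185 and 1049 for M2. Of all these, 1 lay within 5 kb of a keratin gene. The authors' deposited table for M2 gives it as higher in WT, at 15:101672530-101672930 and 3.09 kb from Krt6b, with a log2 fold of -1.91, a p of 0.0032 and a false discovery rate of 0.172. That interval was at 100% in both WT M2 libraries and at 0% in the other 8. Krt6b itself, a type II keratin of injured epidermis, was at 56.1% and 59.0% in WT and KO M0, 1.01% and 22.3% in WT M1, 0% and 40.2% in KO M1, 3.77% and 44.3% in WT M2, and 23.4% and 55.6% in KO M2. One more region lay inside the chromosome 15 span, 18.9 kb from Krt80, at 15:101389014-101389414. The authors' deposited table for M1 lists it as higher in KO, with a log2 fold of 1.62, a p of 0.00102 and a false discovery rate of 1.00. No region of these tables lay within 5 kb of Krt17, Krt42, Krt19, Krt5 or Krt8.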

How the data were processed

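The authors called regions per library without an input, with HOMER findPeaks in region mode (windows of 1000 bp, minimum distance 2500 bp, false discovery rate 0.001), per the file headers. The submitters' processing notes name Bowtie2 2.4.2, SAMtools 1.10, deepTools 3.5.1, HOMER 4.8, DiffBind 2.0.2 and mm10. Per the file headers, the signal is the authors' tag count scaled to 10 megatags, and the authors' score and clonal fold ratio stand beside it. Signal and score ranked regions within a list only. The authors' 4 deposited tables give log2 concentrations, log2 fold, p-value and false discovery rate. Which libraries and model they rest on is not stated.

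Each library's regions were merged. The percent of each RefSeq GRCm38.p6 gene body under them was computed for 21887 protein-coding genes (Python 3.11.15, numpy 2.4.6, pandas 2.3.3, scipy 1.17.1). A region list holds no values outside its calls, so cover also depends on depth and on the caller's thresholds. Wilson 95% intervals of the tag shares are at most 0.0267 points to either side and cover counting error only.

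M1 and M2 were compared by exact permutation over 8 libraries (70 arrangements, smallest p 0.0286), and genotypes by exact permutation within states (72 arrangements). Both used Benjamini-Hochberg adjustment over all genes with any cover in the libraries compared. On simulated data 300 of 300 covered lengths matched. There, 200 of 200 planted genes had p under 0.05 in each test, against 45 and 57 of 1800 others. How often either test finds a shift at the spread of keratin cover (M2 SD 31.9 points at Krt8, 47.45 at Krt5) was not tested.

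Members and gene lists were chosen with earlier results of these data known. Genes given in every library were the simple epithelial keratins, members differing without overlap between M1 and M2, members whose genotypes did not overlap and had means at least 25 points apart within M2 or M1, members without overlap in every state, and members within 5 kb of an authors' region. The remaining genes are given by class. The values of 1 gene of the macrophage list are not reported here. Alternatives were regions of at least 2 kb, the upper 50% of regions by score, covered limits of 25% and 75%, 2 kb flanks, a replicate block and each replicate left out; equal covered length, the 25 point limit and the start window were added after seeing the data.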

Additional observations from a re-analysis of the deposited data

Results flagged for a closer look

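All 53 members, the count of covered genes and the 2 spans were checked in M1 and in M2 for a library far from the other 3, by the gap to the nearest value, in 112 groups of 4. The check marked 20 values. In 13 of them the other 3 libraries were tied at 100%, and at Krt12, Krt16 and Krt27 they were tied at 0%. Where the others are tied any departure is marked whatever its size, so the usual chance rate of about 1 in 20 does not apply. WT M2 replicate 1 held 11 of the 20, all low and on chromosome 15: Krt18 26.4%, Krt81 27.2%, Krt71 36.6%, Krt88 39.1%, Krt72 42.5%, Krt83 57.9%, Krt2 58.0%, Krt73 78.7%, Krt1 84.9%, Krt87 86.4% and Krt82 99.3%, with the other 3 M2 libraries at 98.9% to 100%. That library also has the lowest share of tags in regions, 41.3%, and the part of that share in these values was not tested.

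KO M1 replicate 1 held 4 low values, Krt2 45.6%, Krt88 58.5%, Krt24 64.7% and Krt76 75.9%, against 96.2% to 100% in the other 3 M1 libraries. Krt24 was at 39.4% in WT M2 replicate 2, against 98.7% to 100%. The remaining 4 were single high values among libraries at or near 0%: Krt26 34.4% in WT M1 replicate 2, Krt16 26.7% and Krt12 12.9% in KO M1 replicate 2, and Krt27 13.4% in KO M2 replicate 1. All but Krt26 were marked because the other libraries were tied at 0%.

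Krt17 was ordered oppositely by genotype in the stimulated states, KO above WT in M2 and below in M1, and the differences lay 93.1 points apart. This order is what singled the gene out, so the difference was not tested. Without overlap, 1 of 38 members (2.63%) and 1.86% of all genes showed such an order. At equal covered length 0 members lay below WT without overlap in M1 (background 8.37%), so this order did not hold there without overlap.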

How the results depend on the processing

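Among the recomputed counts, tests and spans, 96 stayed close to their main value and 34 did not. Some of the 96 could not move, because the setting allows no exact permutation p under 0.05. These are the replicate block and the genotype test without an M0 library or with only the stimulated states, where 0 of all genes passed. The 96 also take in 18 members covered in all libraries without WT M2 replicate 1, against 13 in the main setting. With equal covered length, unadjusted exact permutation p under 0.05 for M2 against M1 was found for 3 members in place of 0 (2.70% of all genes). In that setting 2 members lay above M1 (background 1.31%) and 1 below (1.39%) without overlap. KO was lower than WT in M2 at 0 members (background 9.9%), higher in M1 at 2 (11.8%) and lower in M1 at 0 (8.37%). The spans were 5.51% (chromosome 11) and 52.7% (chromosome 15), and Krt24 reversed to -11.9 points from 30.9. With the upper 50% of regions by score, the genotype test had 2 members at unadjusted exact permutation p under 0.05 (2.02% of all genes). In that setting 1 member was covered in all libraries (0.27% of all genes, down from 8.74%). KO was lower in M2 at 0 members (background 11%) and higher in M1 at 3 (13.4%), and the spans were 6.19% and 45.2%. A limit of 25% of the body gave 25 members covered in all (12.9% of all genes). Flanks of 2 kb gave 0 lower in M2 (background 9.94%), 1 higher in M1 (13.7%) and 3 lower in M1 (8.4%). Regions of at least 2 kb gave 2 lower in M1 (background 8.16%). The 25 point limit gave 2 lower in M1 (1.03%) and 0 in M2 (1.58%). The cause of these shifts was not tested.

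Leaving out each replicate gave 0 to 3 members for M2 against M1 and 0 to 2 for the genotype test, with 13 to 18 covered in all libraries. Between states, 0 to 4 members lay above M1 (background 0.929% to 11.9%) and 0 to 1 below (2.06% to 4.75%). Within M2, KO was higher at 14 to 27 members (background 28.7% to 53.6%) and lower at 1 (11.5% to 27.1%). With means at least 25 points apart, KO was higher in M2 at 6 to 18 members (2.96% to 18.6%). Within M1, KO was higher at 2 to 11 members and lower at 6 to 16. For the counts without overlap between genotypes within M1, the background rose from 11.8% to 21.9% or more (higher) and from 8.3% to 14% or more (lower).

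Replicate numbers were not taken as pairs in the main tests. The correlations of replicate 1 deviations between groups ran from -0.0653 to 0.297. With 2 libraries per group they cannot decide whether cultures of the same number were paired. With the replicate block, 0 members had p under 0.05 in either comparison, where the smallest possible p is 0.125 for state and 0.0625 for genotype. Region lists limit the depth of reading: a weak enrichment below the caller's threshold counts as 0%.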
